A study of Mus musculus with 6 samples.

Results

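Foxo1, Foxo3, Foxo4 and Foxo6, the genes of the FoxO transcription factors, were examined together with Depp1, a gene that FoxO factors are known to switch on. They were taken by gene symbol, and all 5 were among the 13363 genes listed. The samples were gastrocnemius muscles of Balb/c mice, which the study describes as male and 6 weeks old when purchased. The 3 C26 muscles came from mice inoculated under the skin of the flank with C26 cells, a mouse colon adenocarcinoma line whose tumors cause cachexia, and the 3 control muscles came from mice without a tumor. Both groups were of the same strain, and neither carried an engineered allele or received a drug according to the labels. The muscles of a group are numbered replicates with no mouse named for each, so p-values measure the spread between these samples.

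Expression was given as FPKM, a read density corrected for transcript length and for the size of the library, which allows levels of genes of different length to be set side by side. The summed FPKM of the listed genes was 531061 to 585169 in the C26 and 626992 to 688300 in the control muscles. Read counts were not analysed here and the low values showed no regular steps, so sequencing depth is unknown for these values. The extraction text of the labels mentions a human cell line, whereas the tissue field says muscle. All 14 skeletal muscle fiber markers examined were listed, and their summed FPKM was 75256 to 110060 in C26 and 137790 to 140559 in control muscles. By the test given below, 1 of these 14 was higher and 1 lower in C26, against 19.4% and 14.5% of all genes. Their mean log2 fold change was -0.15. The 8 adipocyte markers summed to 260.0 to 395 FPKM in C26 and 548 to 4200 FPKM in control muscles, and the 8 fibroblast markers to 170.1 to 210.2 and 370.5 to 446 FPKM. Control replicate 3 stood apart through Cd79b, a part of the B cell receptor, with 134 FPKM against at most 0.82 FPKM in every other muscle, and 4 of the 5 B cell markers were not listed. C26 replicate 2 had the highest summed macrophage markers, 254 FPKM against 8.64 to 44.1 FPKM in the other muscles, of which Cd68 made up 247.

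FoxO factors are forkhead proteins that bind DNA through a shared winged helix domain. Insulin and IGF signaling through Akt phosphorylates them, 14-3-3 proteins then hold them in the cytoplasm, and loss of Akt activity lets them enter the nucleus. In skeletal muscle they are known for switching on ubiquitin ligases and autophagy genes during atrophy. Depp1 encodes a small protein linked to autophagy.

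The stretch of coding sequence in which the 4 FoxO genes are most alike lies in the part that encodes the forkhead domain, and it is shown because reads from such stretches could be assigned to the wrong gene. The 60 bases were read from GENCODE M21 transcripts on GRCm38, they cross an exon junction, and capitals mark the bases that differ from Foxo1.
Foxo1: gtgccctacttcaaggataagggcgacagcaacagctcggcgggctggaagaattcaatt
Foxo3: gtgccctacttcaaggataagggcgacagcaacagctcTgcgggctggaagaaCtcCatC
Foxo4: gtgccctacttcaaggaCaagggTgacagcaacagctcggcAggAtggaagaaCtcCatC
Foxo6: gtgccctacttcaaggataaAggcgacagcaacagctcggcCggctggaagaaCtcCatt
Foxo3 and Foxo6 each matched 56 of the 60 bases of Foxo1, and Foxo4 matched 53. The longest run without a difference from Foxo1 was 38 bases, in Foxo3. Since the reads were 50 bases long, all possible words of that length were compared on both strands, and the transcripts of the 5 genes had 0 of them in common. Foxo3, Foxo4, Foxo6 and Depp1 shared 0 words with any other annotated gene. Foxo1 shared 586 of its 8616 words, or 6.80%, of which 577 were shared with the gene Gm20402, on either strand. The strand setting of the quantification is not given in the sources used here, so Foxo1 reads from this overlap cannot be told apart from reads of Gm20402.

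Of the FoxO factors, Foxo1 and Foxo3 rose in the C26 muscles, Foxo6 fell, and Foxo4 did not pass the test. Depp1 rose as well, by more than any of the factors and with the 3rd highest log2 fold change of all 13363 genes. Of these 5 genes, 4 had an adjusted p under 0.05 in limma after Benjamini-Hochberg (BH) correction over the whole table, against 33.8% of all genes tested. Higher in C26 were 3, against 19.4% of all genes, and lower was 1, against 14.5%. The 4 genes also changed by more than 4-fold, as 3.49% of all genes did. C26 and control values were fully separated for these 4 genes, which was also so for 53.5% of all genes, with C26 above in 27.0% and below in 26.5%. In whole muscle, fewer cells of a type and less RNA per cell cannot be told apart.

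**Figure D1:**
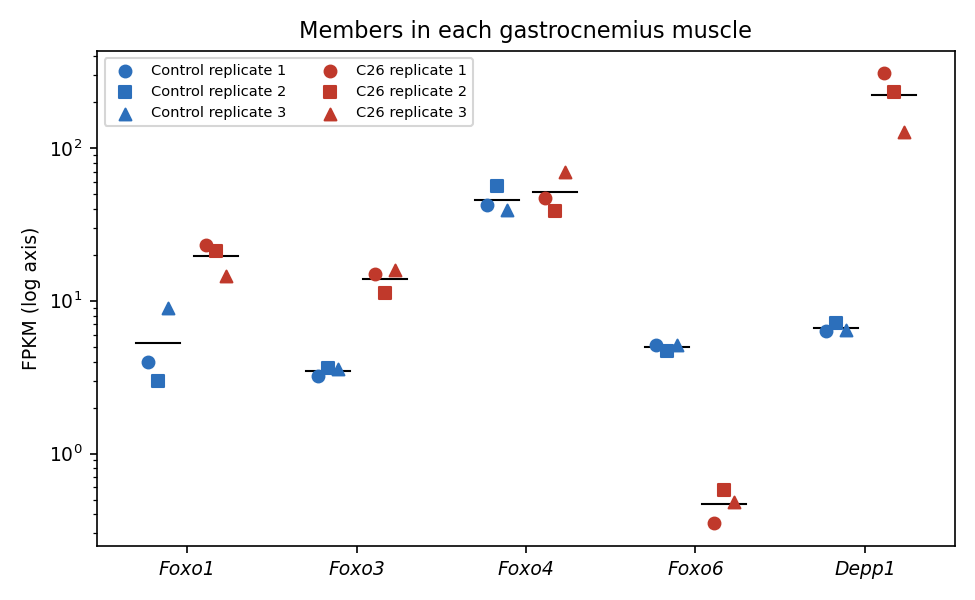
FPKM of each gene in each muscle, on a log axis, with control muscles in blue, C26 muscles in red, a symbol shape per replicate number and a black line at each group mean. The C26 points lie above the control points for Foxo1, Foxo3 and Depp1, below them for Foxo6 and among them for Foxo4.

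Foxo1, which is known to drive atrophy and to restrain myogenic differentiation, lies on the plus strand of chr3:52268337-52350109 (RefSeq, GRCm38.p6). In C26 muscles it had 23.3, 21.2 and 14.6 FPKM, against 3.99, 2.97 and 8.96 FPKM in the controls. Every C26 muscle was above every control, and control replicate 3 was the highest control. Foxo1 rose by 2.09 on the log2 scale (SE 0.34, limma, BH-adjusted p = 0.00795). Without control replicate 3, the muscle with the high Cd79b, it was 2.46 (limma, BH-adjusted p = 0.00407). B cells are known to express Foxo1, and the part of such cells in the value of control replicate 3 was not tested.

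Foxo3, the factor best known for the control of muscle autophagy genes, lies on the minus strand of chr10:42181845-42276695. The C26 muscles had 14.9, 11.2 and 15.8 FPKM and the control muscles 3.24, 3.63 and 3.60 FPKM. The controls lay close together, with an SD of 0.217 FPKM around a mean of 3.49, and the lowest C26 muscle was far above them. Its rise was 2.01 log2 units (SE 0.20, limma, BH-adjusted p = 0.00235). Foxo1 and Foxo3 passed a fold of 4 narrowly, at 4.26-fold and 4.04-fold on the log2(value + 1) scale. With FPKM used as deposited their log2 fold changes were 1.81 and 1.72, and with scaling that left out the 20 most abundant genes 1.86 and 1.80, below that fold and with adjusted p still under 0.05. Foxo1 was also below it with quantile normalization, at 1.94, and leaving out a muscle took it as low as 1.85 and Foxo3 as low as 1.95.

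Foxo4, on the plus strand of the X chromosome (chrX:101254261-101260873), was the most abundant factor in every muscle. It had 46.9, 38.9 and 69.3 FPKM in the C26 and 42.4, 56.2 and 39.1 FPKM in the control muscles. The groups overlapped, with a C26 muscle at each end of the FPKM range. On the log2(value + 1) scale of the test, control replicate 3 was the lowest, at 5.84, and C26 replicate 2 was at 6.08. The log2 fold change was 0.36, with a 95% confidence interval of -0.38 to 1.10 (limma, BH-adjusted p = 0.389), and it turned to -0.047 with quantile normalization. The interval leaves room for a difference in either direction, up to 1.10 on the log2 scale.

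Foxo6, the family member studied mainly in brain and liver, lies on the minus strand of chr4:120267078-120287261. The C26 muscles had 0.35, 0.58 and 0.48 FPKM and the control muscles 5.13, 4.67 and 5.11 FPKM. All controls were thus near 5 FPKM and all C26 muscles below 1. The mean level was 10.6-fold lower in FPKM, and the log2 fold change on the log2(value + 1) scale was -2.24 (SE 0.14, limma, BH-adjusted p = 0.000822). That scale understates the change of a gene with values below 1, and with a pseudocount of 0.1 the log2 fold change was -3.07. With quantile normalization it was -1.99, just short of 4-fold. Markers of some other cell types were lower in C26 muscles as well, with 6 of 8 adipocyte, 4 of 8 fibroblast, 2 of 5 smooth muscle and pericyte and 2 of 9 endothelial markers passing the test, against 14.5% of all genes. None of the 7 macrophage or 3 satellite cell markers passed it. Their summed levels in C26 and control muscles were 260.0 to 395 and 548 to 4200 FPKM for adipocytes, 170.1 to 210.2 and 370.5 to 446 for fibroblasts, 41.2 to 66.4 and 71.4 to 107 for smooth muscle and pericytes, and 71.9 to 78.3 and 81.9 to 122 for endothelium. These sums are of FPKM as deposited, whose total over all listed genes was itself lower in the C26 muscles. On the log2(value + 1) scale the mean log2 fold change of the markers was -3.50 for adipocytes and -1.61 for fibroblasts. It was -0.90 for smooth muscle and pericytes and -0.20 for endothelium. The part of these cells in the fall of Foxo6 was not tested.

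Depp1, on the plus strand of chr6:116650684-116652847, had 308, 231 and 127 FPKM with C26 tumors, against 6.30, 7.10 and 6.39 FPKM in the controls. The lowest C26 muscle, replicate 3, was far above all controls. Depp1 rose by 5.07 log2 units (SE 0.31, limma, BH-adjusted p = 0.000822), or 33.5-fold. Its spread between muscles was uneven, with an SD of 90.9 FPKM in the C26 and 0.438 FPKM in the control group.

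Levels within a group were ordered by mean FPKM. In the control muscles Foxo4 led with 45.9 ± 9.07 FPKM (SD, n = 3), followed by Depp1 with 6.60 ± 0.44, Foxo1 with 5.31 ± 3.20, Foxo6 with 4.97 ± 0.26 and Foxo3 with 3.49 ± 0.22. The ranges of Depp1 and Foxo1 overlapped, as did those of Foxo1 and Foxo6. In the C26 muscles the order was Depp1 with 222 ± 90.9, Foxo4 with 51.7 ± 15.7, Foxo1 with 19.7 ± 4.56, Foxo3 with 13.96 ± 2.41 and Foxo6 with 0.47 ± 0.12 FPKM, and only the ranges of the neighbours Foxo1 and Foxo3 overlapped. Depp1 was above 56.9% of the listed genes in the control muscles and above 97.4% in the C26 muscles. Foxo6 was above 49.9% of them in the control muscles and above 19.9% in the C26 muscles.

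The makeup of the FoxO transcripts was described by each factor's share of their summed FPKM. The sum was 85.4, 71.9 and 100.1 FPKM in C26 and 54.7, 67.4 and 56.8 FPKM in control muscles, without overlap. On the scale of TMM-scaled TPM, FPKM rescaled to a common sum and to a common trimmed mean, the sum differed by 0.73 log2 units (two-sided exact permutation test, p = 0.1). This is the smallest p that 3 muscles against 3 allow, and none of the permutation tests here could pass 0.05. Foxo4 held 54.9%, 54.1% and 69.2% of the sum with C26 tumors, against 77.4%, 83.3% and 68.9% in the controls. These shares overlapped between the groups (exact permutation test, p = 0.2). Foxo1 held 27.3%, 29.5% and 14.6% in the C26 and 7.29%, 4.40% and 15.8% in the control muscles, which overlapped too (exact permutation test, p = 0.2). Foxo3 held 16.3% ± 0.99 in the C26 and 5.88% ± 0.48 in the control muscles (SD, n = 3), without overlap (exact permutation test, p = 0.1). Foxo6 held 0.565% ± 0.212 and 8.43% ± 1.32, also without overlap (exact permutation test, p = 0.1). The adjusted p of each of the 4 shares was 0.2 (exact permutation tests, BH-adjusted).

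**Figure D2:**
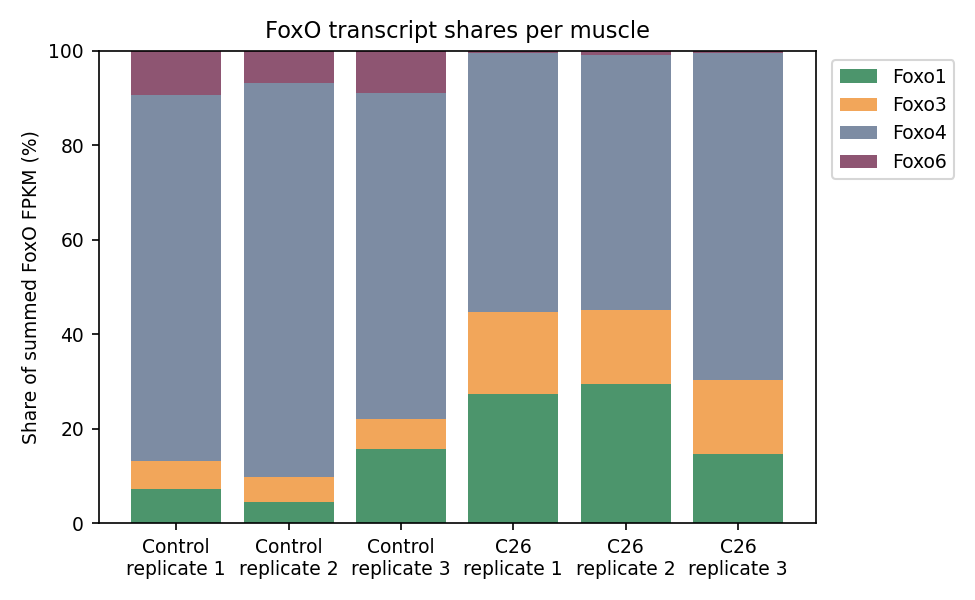
Stacked bars of the share of each FoxO gene in the summed FoxO FPKM, in percent, for the 3 control and the 3 C26 muscles. The Foxo6 segment held 6.92% to 9.37% in the control muscles and less than 1% in the C26 muscles, and the Foxo3 segment was above 15% in every C26 muscle.

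Differences between the genes in their response were tested on the log2 ratio of each of the 10 pairs in each muscle. The ratio of Foxo1 to Foxo3 averaged 0.47 ± 0.52 in C26 and 0.39 ± 0.72 in control muscles (SD, n = 3), a difference of 0.08 with overlapping groups (exact permutation test, p = 0.9). The ratio of Foxo3 to Foxo4 was -1.82 ± 0.25 in C26 and -3.47 ± 0.27 in control muscles, without overlap (exact permutation test, p = 0.1). Foxo1 to Foxo4 overlapped, with a difference of 1.73 (exact permutation test, p = 0.2). Control replicate 3 lay at -2.04 and C26 replicate 3 at -2.21, so the replicates numbered 3 made the overlap. The ratios of Foxo1 and Foxo3 to Foxo6 differed by 4.33 and 4.25, and the ratio of Foxo6 to Depp1 by -7.31, each without overlap. The ratio of Foxo1 to Depp1 was -3.39 ± 0.31 in C26 and -0.42 ± 0.79 in control muscles, also without overlap. Of the 10 ratios, 8 had no overlap, with an adjusted p of 0.125 each (exact permutation tests, BH-adjusted).

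The genes whose pattern was most like that of each member were found by the root mean square difference over the 6 muscles of log2 values centred on each gene's own mean, among 8919 genes with a mean log2 level of at least 2. Nearest to Foxo1 was Junb, an AP-1 gene, at 0.201 log2 units, followed by Ctps2 and Gramd3. Junb had 54.4, 35.6 and 39.5 FPKM with C26 tumors, against 9.40, 7.33 and 20.6 in the controls, so that control replicate 3 was again the highest control. Nearest to Foxo3 was Fbxo30, the gene of a muscle ubiquitin ligase, at 0.0997, followed by Zfyve1 and Ube4a. Foxo4 was near to Cnst, at 0.0801, and to Iba57, and Foxo6 was nearest to Calm2, a calmodulin gene, at 0.122, Dipk1a and Mrtfa. Nearest to Depp1 was Trim63, the gene of the ubiquitin ligase MuRF1, at 0.232, followed by Maff and Retreg1, a receptor for autophagy of the endoplasmic reticulum. These distances describe likeness over 6 muscles that differ by group, and were not tested.

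Upstream of the factors, 46 genes known to regulate FoxO proteins were examined, and all were listed. Of these, 15 rose and 5 fell, or 32.6% and 10.9%, against 19.4% and 14.5% of all genes. With scaling that left out the 20 most abundant genes, 8 were higher and 8 lower, and of all 13363 genes 1520 were higher and 3356 lower. Their median log2 fold change was 0.19, and that of all genes was -0.05. In the branch from the insulin and IGF receptors to Akt, 9 of 16 genes rose and 0 fell. Irs2, an adaptor of the insulin receptor that is itself a FoxO target, rose from 1.41 ± 0.62 to 12.8 ± 1.74 FPKM (log2 fold change 2.95). Akt1, the kinase that inactivates FoxO factors, rose from 26.3 ± 3.71 to 153 ± 61.8 FPKM (log2 fold change 2.65, limma, BH-adjusted p = 0.00355). These are RNA levels. By western blot of C26 muscle the paper found less phosphorylated Akt1, although total Akt1 protein was higher. The insulin receptor gene Insr and Pdpk1, whose product phosphorylates Akt, rose by 1.79 and 1.56 on the log2 scale.

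Counts by role are read against the 19.4% of all genes that rose and the 14.5% that fell. Of 8 genes for 14-3-3 proteins and nuclear export, 0 rose and 3 fell, or 0% and 37.5%. Ywhaq and Ywhab, which encode 14-3-3 proteins, had log2 fold changes of -1.001 and -0.85, and Xpo1, the nuclear export receptor, of -0.63. When each muscle was omitted in turn, Ywhab and Xpo1 lost their call in 5 of 6 fits, and Ywhaq in 2. Ywhab also lost it under 2 of the 8 processing alternatives. Of 10 other kinases 20% rose and 20% fell. Prkaa2 and Mapk8 rose by 1.16 and 0.66 on the log2 scale, and Cdk2 and Nlk fell by 1.43 and 0.74. Among 8 genes for acetylation and methylation 37.5% rose and 0% fell. The deacetylase genes Sirt1 and Sirt2 and the acetyltransferase gene Ep300 rose, by 0.82, 0.69 and 0.56. Of 4 ubiquitin genes 1 rose, or 25.0%, which was Mdm2 by 0.75. With each muscle omitted in turn, Cdk2 passed in all 6 fits, Mapk8 and Mdm2 lost their call in 2, and Prkaa2, Nlk, Sirt1, Sirt2 and Ep300 in 3. Under the 8 processing alternatives Sirt1 and Ep300 lost it in 3, Prkaa2, Mapk8, Sirt2 and Mdm2 in 2 and Nlk in 1. With quantile normalization Sirt2 was at 0.30. Leaving out C26 replicate 1, C26 replicate 2 or control replicate 1 left 8, 9 and 7 of the 46 regulators higher and 1, 2 and 1 lower, respectively. Calls over all genes dropped in these fits as well, from 2589 higher and 1931 lower. They were then 1130, 1529 and 1152 higher and 669, 946 and 726 lower.

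Downstream, 45 genes known as FoxO targets were examined and all were listed. They include Irs2, Insr and the PI3 kinase gene Pik3ca, which are also among the 46 regulators. Of the 45, 24 rose and 2 fell, or 53.3% and 4.44%, against 19.4% and 14.5% of all genes. Their median log2 fold change was 0.81, and that of all genes -0.05. With a fold change above 4, 15 rose and 0 fell, against 1.77% and 1.73% of all genes. The targets, like the regulators, were chosen with earlier results of these data known, so these shares only describe the list. Among the ubiquitin ligase genes, 4 of 5 rose. Trim63 rose from 129 ± 19.3 to 3359 ± 815 FPKM and Fbxo32, the gene of atrogin-1, from 36.7 ± 10.3 to 658 ± 177, with log2 fold changes of 4.89 and 4.36. Fbxo31 and Fbxo30 followed with 2.90 and 2.01, and Fbxo21 had -0.43 (limma, BH-adjusted p = 0.259).

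Of 12 autophagy and lysosome genes, 7 rose and 0 fell, or 58.3% and 0%, against 19.4% and 14.5% of all genes. Gabarapl1, an ATG8 protein of the autophagosome, rose from 28.6 ± 5.93 to 523 ± 251 FPKM (log2 fold change 4.25). Bnip3, a mitophagy receptor, Ctsl, a lysosomal protease, and Ulk1, the kinase that starts autophagy, rose by 2.68, 2.43 and 2.26 on the log2 scale. Tfeb and Becn1 did not pass, at 0.18 and -0.08.

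Of 14 genes of growth arrest, stress and cell death, 6 rose and 2 fell, or 42.9% and 14.3%. Of all genes 19.4% rose and 14.5% fell, so the share that fell was at the background. Cdkn1a, the cell cycle inhibitor p21, rose from 6.65 ± 0.43 to 118 ± 45.3 FPKM (log2 fold change 4.17), and Sesn1, a sestrin that restrains mTORC1, from 11.9 ± 2.28 to 187 ± 65.7 FPKM (4.07). Gadd45a and Rbl2 rose by 2.19 and 1.91. The 2 that fell were Cited2 and the repressor gene Bcl6, with log2 fold changes of -1.48 and -1.43. Both are named after their values were seen. Without C26 replicate 1 or control replicate 1, 1 target was lower, beside 669 and 726 of all genes.

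Of 10 genes of metabolism and growth signaling, 6 rose and 0 fell, or 60% and 0%, beside 19.4% and 14.5% of all genes. Pdk4, the kinase that shuts off pyruvate dehydrogenase, rose from 90.8 ± 33.0 to 1179 ± 234 FPKM (log2 fold change 3.96). Eif4ebp1, a brake on translation initiation, rose by 3.46. Of 4 antioxidant genes, Prdx5 rose by 0.72 and lost its call in 4 of the 6 fits with a muscle omitted and under 5 of the 8 processing alternatives, down to 0.37 with quantile normalization. C26 replicate 3 was the lowest C26 muscle for 17 of the 24 targets that rose, or 70.8%, and for 71.8% of all genes that rose. It was also the lowest for Foxo1 and Depp1, and the highest for Foxo3 and Foxo4.

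**Figure D3:**
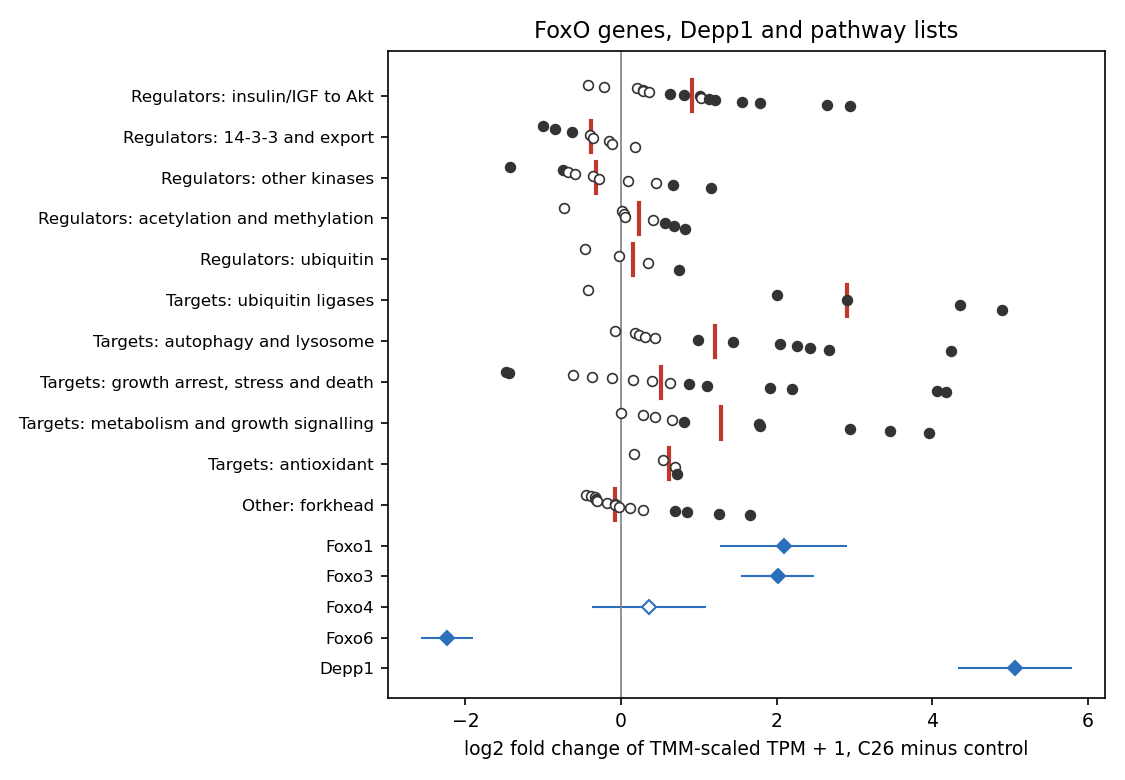
Log2 fold change, C26 minus control, of the FoxO regulators, FoxO targets and other forkhead genes (1 circle per gene, filled where the adjusted p from limma was under 0.05, red line at the median of each role) and of the 5 genes examined (blue diamonds with 95% confidence intervals). Ubiquitin ligase targets had the highest median, 2.90, and the 14-3-3 and export genes the lowest, -0.38.

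The rest of the forkhead family served as a comparison. Of 40 other forkhead genes, 16 were listed, of which 4 rose and 0 fell, or 25.0% and 0%, against 19.4% and 14.5% of all genes. Their median log2 fold change was -0.08, and that of all genes -0.05. Foxk1, whose product is known to repress autophagy genes that FoxO factors activate, rose from 3.69 ± 0.83 to 11.4 ± 3.15 FPKM (log2 fold change 1.66). Foxj3, Foxn2 and Foxj2 rose by 1.26, 0.84 and 0.70. Foxn2 and Foxj2 lost their call in 3 of the 6 fits with a muscle omitted and under 3 of the 8 processing alternatives. Without C26 replicate 1, C26 replicate 2 or control replicate 1, 2 of the 16 were higher. Of all 13363 genes 1130, 1529 and 1152 were higher in these fits.

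Promoters of 3 of the 5 genes, Foxo1, Foxo3 and Depp1, were read from RefSeq (GRCm38.p6), from 250 bases before to 50 after the start. The forkhead core motif GTAAACA and its variant GTAAATA were searched on both strands (TGTTTAC and TATTTAC), and they cannot match at the same position. The promoter of Depp1, the gene that rose most of the 5, is printed because it held the GTAAATA motif, shown in capitals, 181 bases before the start (chr6:116650434-116650733, plus strand).
Depp1: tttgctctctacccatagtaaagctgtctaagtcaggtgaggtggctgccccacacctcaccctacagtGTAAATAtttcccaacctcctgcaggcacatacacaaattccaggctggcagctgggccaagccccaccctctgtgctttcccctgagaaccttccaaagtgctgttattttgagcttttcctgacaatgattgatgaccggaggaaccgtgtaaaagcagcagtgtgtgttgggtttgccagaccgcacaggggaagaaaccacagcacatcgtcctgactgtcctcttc
The promoters of Foxo1 and Foxo3 held neither motif in this window. GTAAATA was found for 1.98% and GTAAACA for 3.13% of the 10600 listed genes with a promoter in the table. Of 37 FoxO targets with a promoter, 6 held GTAAACA and 0 held GTAAATA. The windows of these 6 are shown on the strand of the gene with the motif in capitals, to set them beside the expression values.
Trim63: agtctgttctTGTTTACgacccccacg
Sesn1: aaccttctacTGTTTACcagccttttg
Txnip: tggaggcctgGTAAACAagggccaagt
Mxi1: gcgcggagaaGTAAACAaaccgcgcgc
Bcl2l11: agacactaggGTAAACAcgccggggtg
Bbc3: ctggcgggttTGTTTACaaacaatggg
Of these genes Trim63 and Sesn1 rose, with log2 fold changes of 4.89 and 4.07. Txnip, Mxi1, Bcl2l11 and Bbc3 did not pass the test, at 0.65, 0.63, 0.15 and -0.37. A motif match is a description of the letters and was not related to binding.

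**Figure D4:**
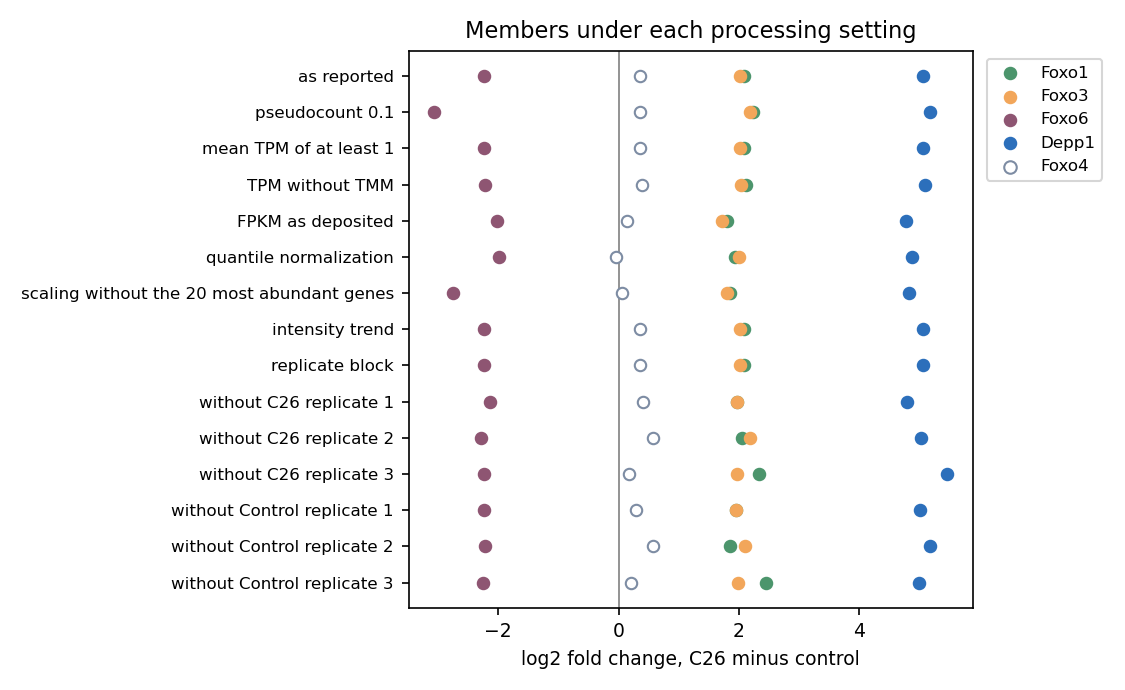
Log2 fold change of each gene, C26 minus control, as reported, under each alternative way of processing and with each muscle left out, with filled symbols where the adjusted p from limma was under 0.05. Depp1, Foxo1, Foxo3 and Foxo6 stayed on 1 side of 0 with filled symbols throughout, and the open symbols of Foxo4 lay between -0.05 and 0.58.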

How the data were processed

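RNA of the gastrocnemius of 3 C26 and 3 control mice was depleted of rRNA by the authors, sequenced as single-end reads of 50 bases, aligned with bowtie2 to GRCm38.p5 and quantified with RSEM. The submitters' processing notes list HISAT2 2.0.4, Bowtie2 2.2.5, RSEM 1.2.12 and mm9. The deposited values are FPKM under Entrez gene IDs, to 2 decimals, and every listed gene is above 0 in all samples. RSEM shares out ambiguous reads, so FPKM of similar genes can depend on each other.

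Groups came from the sample labels. Symbols were found for 13327 IDs and not for 36 (RefSeq, GRCm38.p6). FPKM were rescaled to TPM, divided by TMM factors (unweighted, trimming 30% of the log ratios and 5% by mean level) and log2-transformed after adding 1. Groups were compared with limma 3.58.1 under R 4.3.3, with Benjamini-Hochberg adjustment over all 13363 genes, and the fit was tested on simulated data. Shares and ratios were compared with exact permutation tests (scipy 1.17.1). Figures were drawn with matplotlib 3.10.9. The alternatives were another pseudocount, a filter on low values, 4 other normalizations, an intensity trend, a replicate block and leaving out each muscle.

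The genes named were all 5 members, up to 4 genes per role, ranked by size of change within those that passed an adjusted p of 0.05, 6 textbook targets (Fbxo32, Trim63, Gabarapl1, Bnip3, Cdkn1a and Pdk4) and the 3 genes most like each member. Some genes that these rules reach are not reported here. Further list members are given where their count or the promoter search named them. The members and lists were chosen with earlier results of these data known. The other datasets of the study were not used here.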

Additional observations from a re-analysis of the deposited data

How the results depend on the processing

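Depp1, Foxo1, Foxo3 and Foxo6 kept their direction and stayed significant in limma under all 8 alternatives and in the 6 fits that left out a muscle. With a muscle left out, the log2 fold change lay between 4.79 and 5.47 for Depp1, 1.85 and 2.46 for Foxo1, 1.95 and 2.19 for Foxo3, and -2.29 and -2.14 for Foxo6. Foxo4 turned to -0.047 with quantile normalization, and the cause was not tested. The ratio of Foxo1 to Foxo3 differed by -0.24 to 0.46 with a muscle left out. It was below 0 without C26 replicate 1 (-0.0052), C26 replicate 2 (-0.13) or control replicate 2 (-0.24).

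FPKM as deposited gave 1678 genes higher in C26, and 2 other forkhead genes higher. The calls under it split into 1678 higher and 2504 lower, against 2589 and 1931 as reported. Scaling without the 20 most abundant genes shifted the all-gene median by -0.22 log2 units and gave 1520 genes higher and 3356 lower. Under it 8 FoxO regulators were higher and 8 lower, and of the other forkhead genes 2 were higher and 1 was lower. Under this scaling Foxo1, Foxo3 and Depp1 were higher by 1.86, 1.80 and 4.82 and Foxo6 was at -2.76 on the log2 scale. With each muscle left out, 1130 to 3311 genes were higher and 669 to 2160 lower. In these fits 7 to 16 regulators were higher and 1 to 5 lower, 21 to 27 FoxO targets were higher and 1 to 3 lower, and 2 to 4 of the other forkhead genes were higher and 0 lower. The fits without C26 replicate 1, C26 replicate 2 or control replicate 1 gave the fewest genes higher (1130, 1529 and 1152) and lower (669, 946 and 726), and each left 2 other forkhead genes higher. Without C26 replicate 3 the counts were 3311 higher and 2160 lower. The cause was not tested.

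For the regulators, targets and other forkhead genes named by rule, 407 of the recomputed values stayed significant in the same direction, 69 lost significance and 0 changed direction. The replicate numbers were not taken as pairs. Samples with the same number had correlations of their deviations from the group means of -0.04, -0.08 and -0.11. The replicate block gave 1843 genes higher and 1236 lower, 1 FoxO target lower and 2 other forkhead genes higher, and Depp1, Foxo1, Foxo3 and Foxo6 had adjusted p of 0.0129, 0.0311, 0.0181 and 0.0142 in it (limma, BH-adjusted). The 3 muscles per group and an unknown depth limit the precision.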

Other observations

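Control replicate 3, which held 134 FPKM of Cd79b, also had the highest control values of some forkhead genes of lymphocytes. Foxp3, which marks regulatory T cells, had 1.38 FPKM there against 0.01 to 0.06 FPKM in every other muscle. Foxp1, which is known to oppose FoxO factors and is abundant in lymphocytes, had 9.66 FPKM there and between 1.51 and 2.56 FPKM in the others. Stk4, the gene of the MST1 kinase that phosphorylates FoxO factors, had 9.30 FPKM there and 1.25 to 2.2 FPKM elsewhere. Foxo3 and Foxo6 did not stand apart in this muscle, with 3.60 and 5.11 FPKM. These genes were picked after their values were seen.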
